A study of Homo sapiens with 3 samples.

Results

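The genes described here encode the proteins that take up glucose, break it down to pyruvate, pass pyruvate on to lactate or to the mitochondrion, and run the pentose phosphate pathway. They were chosen by name, with earlier results of these data known. They are 33 genes, set beside the 19775 that the array names through a probe set with 1 gene symbol. Of the 33, 31 had such a probe set. For the lactate and pyruvate transporter genes SLC16A1 and SLC16A3 none with a single symbol was listed, so their expression is not analysed here. Each gene is given by its brightest probe set (highest mean over the arrays), and its other probe sets serve as a check.

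RNA came from PANC-1, an established human line of pancreatic ductal adenocarcinoma, in 3 stable lines with 1 array each. The control line carried the blank MSCV retroviral vector, another expressed wild-type JMJD3, and the last expressed a mutant JMJD3. No line received further treatment. JMJD3 is the product of KDM6B and removes trimethylation from lysine 27 of histone H3, and the series title links it to the hexokinase gene HKDC1 and the spectrin cytoskeleton. The labels do not name the mutation, say whether a line is 1 clone or a pool, or give culture times. There were no replicates, so no difference has a replicate check and no p-value is given, and the small number of arrays limits all precision. Both JMJD3 arrays were set against the same control array, so the comparisons are not independent of each other.

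Glycolysis splits glucose into pyruvate in the cytosol, with net gain of ATP and NADH. Lactate dehydrogenase regenerates NAD from pyruvate, the pyruvate dehydrogenase complex commits pyruvate to the tricarboxylic acid cycle, and pyruvate dehydrogenase kinases switch that complex off by phosphorylation. The pentose phosphate pathway branches off at glucose phosphate and yields NADPH and ribose. Pancreatic ductal carcinoma cells are known for high glucose uptake and lactate output, and many of these genes are known targets of hypoxia-inducible factor and MYC.

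The 3 arrays had median log2 signals of 5.48 to 5.5 over 54613 probe sets, and 21.0% of probe sets held one value in all arrays. A floor was set at the pooled median, log2 5.48, and a gene counts as measured where 1 or both arrays of a comparison lay over it. The 31 genes lay over the floor in every array, from 6.98 to 14.46, with 14.94 the top of the whole table. KDM6B was read by 5 probe sets. The brightest read 7.60 in control, 7.66 with wild-type and 7.65 with mutant JMJD3, or 0.06 and 0.05 above control on the log2 scale. Over all 5, differences from control ran from 0.00 to 1.20 with wild-type JMJD3 and from -0.11 to 0.92 with mutant JMJD3. The largest in both lines came from a probe set at 5.53 in control, close to the floor. Another, at 6.02 in control and further over the floor, was also higher, by 0.73 with wild-type and 0.49 with mutant JMJD3. The probe set at 6.99 in control differed by 0.00 and -0.11. The last read 5.12 in every array, under the floor, and checks nothing. The arrays thus gave no uniform rise of KDM6B over its probe sets. Of 6 epithelial markers 5 were over the floor in each array (CDH1 read 4.62 in all), VIM and CDH2, known in PANC-1, were over it too, and the acinar, endocrine and immune markers with a probe set were under it in all arrays. Of fibroblast and endothelial markers COL1A1, DCN and PECAM1 were over it in all arrays and PDGFRA and CDH5 in none.

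With mutant JMJD3 most of the glycolytic route read lower than in control, and the glucose transporters, ALDOC and PFKFB4 passed 2-fold. Of the 31 genes, 22 were below control, 8 above and 1 equal, with a median log2 difference of -0.22, while over all 12707 measured genes 41.2% were below control, 45.9% above, and the median was 0.00. By 2-fold or more 4 of the 31 were lower and 0 higher, against 0.535% lower and 2.98% higher among all measured genes. Over the 7984 bright genes, those with a mean above the pooled 75th percentile (log2 7.59), the median was 0.00 as well. In RNA from whole cultures, fewer expressing cells and less RNA per cell cannot be told apart. LDHB and PDK2, within 0.01 of control with the mutant, changed side with the scaling of the arrays.

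With wild-type JMJD3 most of the 31 genes read above control, with log2 differences from -1.06 (PDK3) to 0.82 (ENO3). There 22 of the 31 genes were above control and 9 below, with a median of 0.20, against 54.4% above, 34.3% below and a median of 0.05 over all 12697 measured genes. Over the 7984 bright genes 56.0% were above control and 39.5% below, with a median of 0.08. By 2-fold 0 of the 31 genes were higher (0.953% of all measured genes) and only PDK3 was lower (1.31%). When probe sets of the shared kind (_s_at, _x_at) were dropped, 17 genes were left, 9 above control and 7 below. Setting wild-type directly against mutant JMJD3, 24 of the 31 were higher with wild-type and 7 lower, with a median of 0.42. Over all 12829 genes measured there 49.7% were higher and 40.5% lower, with a median of 0.00. In that comparison 5 passed 2-fold upward, beside 2.61% of all measured genes, and 1 downward, beside 6.2%. The mutant array alone held the lowest value for 21 of the 31 genes, as it did for 31.7% of the 12867 genes over the floor in any array, and the wild-type array alone held the highest for 19, as it did for 41.9% of those genes.

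**Figure D1:**
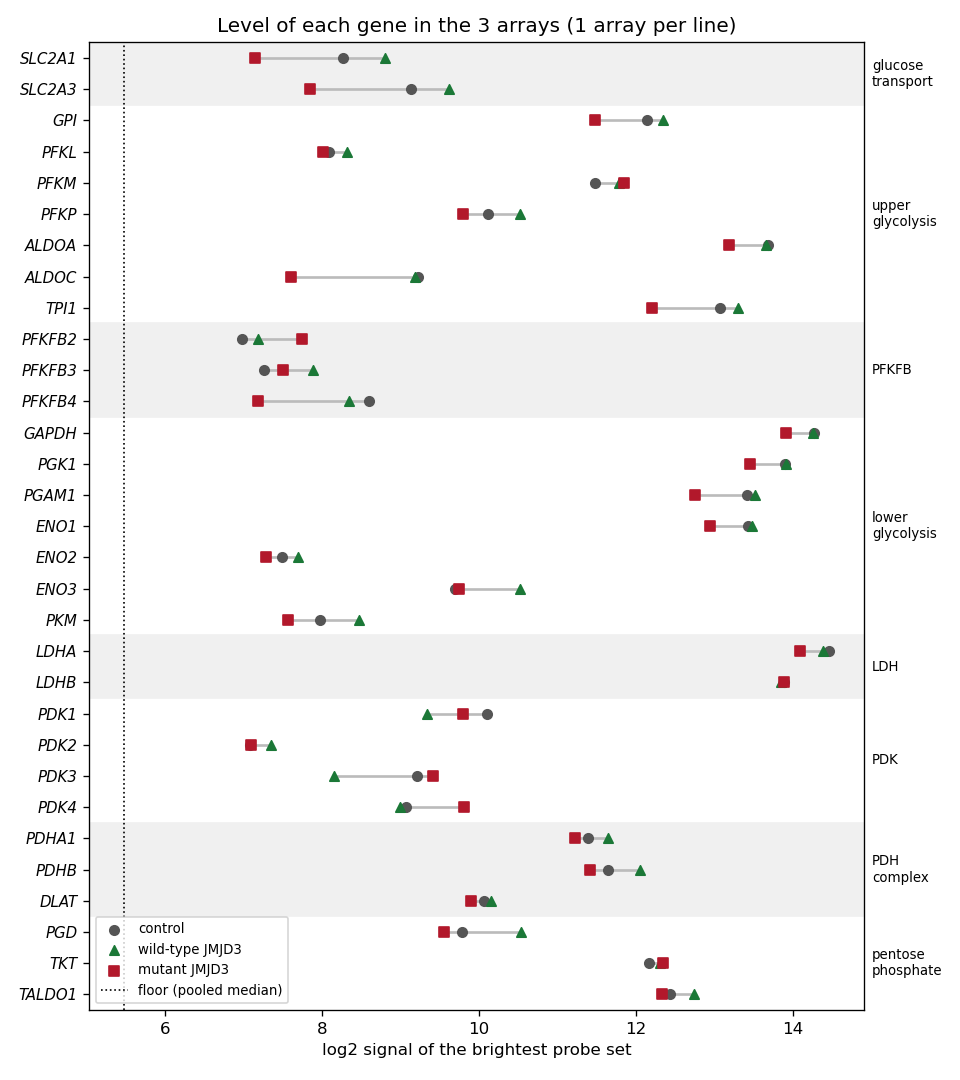
Log2 signal of the brightest probe set of each of the 31 genes (rows, grouped by role) in the control (circle), wild-type JMJD3 (triangle) and mutant JMJD3 (square) arrays, with the floor at 5.48 as a dotted line. The mutant square is leftmost in 21 rows, most widely for SLC2A1, SLC2A3, ALDOC and PFKFB4, and PFKM, PFKFB2, PDK3, PDK4 and TKT have it rightmost.

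Glucose enters these cells through facilitative transporters, and both transporter genes were lowest with mutant JMJD3. SLC2A1 encodes GLUT1, the widespread basal transporter, and read log2 8.27 in control, 8.80 with the wild-type protein and 7.15 with the mutant. The mutant array was low and the wild-type array high, so that SLC2A1 was 2.17-fold lower with the mutant and 1.44-fold higher with wild-type than in control. SLC2A3 encodes GLUT3, a transporter of high affinity, and read 9.13 in control, 9.62 with wild-type and 7.85 with mutant JMJD3. It was thus 2.43-fold lower with the mutant and 1.40-fold higher with wild-type. Wild-type exceeded mutant 3.14-fold for SLC2A1 and 3.41-fold for SLC2A3. When an offset replaced the floor, SLC2A1 was at -0.92 for mutant against control, short of 2-fold. Counted from the lowest difference between mutant and control, SLC2A3 stood at place 16 and SLC2A1 at place 42 of 12707 genes. The remaining SLC2A3 probe sets had the same directions, with log2 differences of -1.53 and -1.58 for mutant against control and 1.16 and 0.40 for wild-type against control. SLC2A1 has 1 other probe set, which read 3.64 in every array, under the floor, and checks nothing.

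The bifunctional PFKFB enzymes make and break down the sugar bisphosphate that activates phosphofructokinase, and the 3 family members did not share a direction. PFKFB4 read 8.60 in control, 8.34 with wild-type and 7.18 with mutant JMJD3. It was 2.68-fold lower with the mutant, at place 13 from the lowest, and 1.20-fold lower with wild-type. PFKFB3, the isoform with strong kinase activity, read 7.26, 7.88 and 7.50 in the same order of arrays. It was highest with wild-type JMJD3, 1.54-fold above control, and 1.18-fold above control with the mutant. PFKFB2, known from heart, read 6.98, 7.18 and 7.75, and was highest with the mutant, 1.71-fold above control. Its other measured probe sets, at 5.52 to 5.88 close to the floor, differed from control by -0.04 and -0.09 with the mutant. PFKFB4 is read over the floor by 1 probe set, as is PFKFB3. Wild-type exceeded mutant 2.23-fold for PFKFB4, or 0.96 on the log2 scale with the offset.

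Among the enzymes that turn glucose phosphate into triose phosphate, ALDOC differed most. Aldolase splits fructose bisphosphate, and ALDOC is the isozyme best known from brain. It read 9.22 in control, 9.18 with wild-type and 7.61 with mutant JMJD3. Control and wild-type differed by 0.04, while the mutant array was 3.05-fold lower than control, at place 6 from the lowest difference of all measured genes. ALDOC has 1 probe set, so no other serves as a check. ALDOA, the ubiquitous and muscle isozyme, read 13.69, 13.66 and 13.19, so it was 1.41-fold lower with the mutant. Its 3 probe sets gave -0.50, -0.55 and -0.61 for mutant against control.

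TPI1, which interconverts the triose phosphates, read 13.07 in control, 13.30 with wild-type and 12.21 with mutant JMJD3. It was 1.82-fold lower with the mutant than in control and passed 2-fold only between the JMJD3 lines, at 2.13-fold. A dimmer TPI1 probe set read 6.54, 6.68 and 6.59 and showed no such gap. GPI, which isomerises glucose phosphate, read 12.14, 12.35 and 11.48 and was 1.58-fold lower with the mutant. The phosphofructokinase subunits, which form the committed step, split. PFKP read 10.12, 10.52 and 9.80 and PFKL 8.09, 8.32 and 8.01, both lowest with the mutant, PFKL by 0.08. PFKM, the muscle subunit, read 11.48, 11.78 and 11.85 and was higher than control in both JMJD3 arrays, by 0.30 and 0.37.

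In lower glycolysis 6 of 7 genes were below control with mutant JMJD3 and 6 of 7 above control with wild-type, none by 2-fold. Among all measured genes 41.2% were below control with the mutant and 54.4% above with wild-type. The wild-type count includes PGK1 at 0.02 and ENO1 at 0.05, which were both below 0 with quantile normalization. PGAM1, phosphoglycerate mutase, read 13.42 in control, 13.52 with wild-type and 12.76 with mutant JMJD3. It was the lowest of the group against control, at 1.58-fold. PKM, pyruvate kinase of muscle and tumours, read 7.98, 8.47 and 7.57, which is 1.87-fold between the JMJD3 lines. Its other probe set was also lower with the mutant (-0.42) but level with control in the wild-type array (-0.03). ENO1, the ubiquitous enolase, read 13.43, 13.48 and 12.95, and ENO2, the neuronal one, 7.49, 7.69 and 7.29. ENO3, the muscle enolase, departed from both. It read 9.70, 10.52 and 9.75, so it was 1.77-fold higher with wild-type than in control and differed by 0.05 with the mutant.

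GAPDH and PGK1, which catalyse the oxidation step and the first ATP gain, read close to the top of the table. GAPDH read 14.27 in control, 14.26 with wild-type and 13.92 with mutant JMJD3, and its 3 probe sets gave -0.35, -0.38 and -0.38 for the mutant. The mutant array was thus 1.27-fold lower for a gene often used as a loading reference. PGK1 read 13.90, 13.92 and 13.46 at its brightest probe set, -0.44 for the mutant. Its dimmer probe sets at 7.26 to 13.04 in control gave -0.77, -0.90, -0.96 and -0.52, so the brightest had the smallest of these differences. The last PGK1 probe set, under the floor in control, gave 0.25. The signs of GAPDH, PGK1 and ENO1 for wild-type against control (-0.01, 0.02 and 0.05) changed with the scaling of the arrays, and for the mutant they did not.

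**Figure D2:**
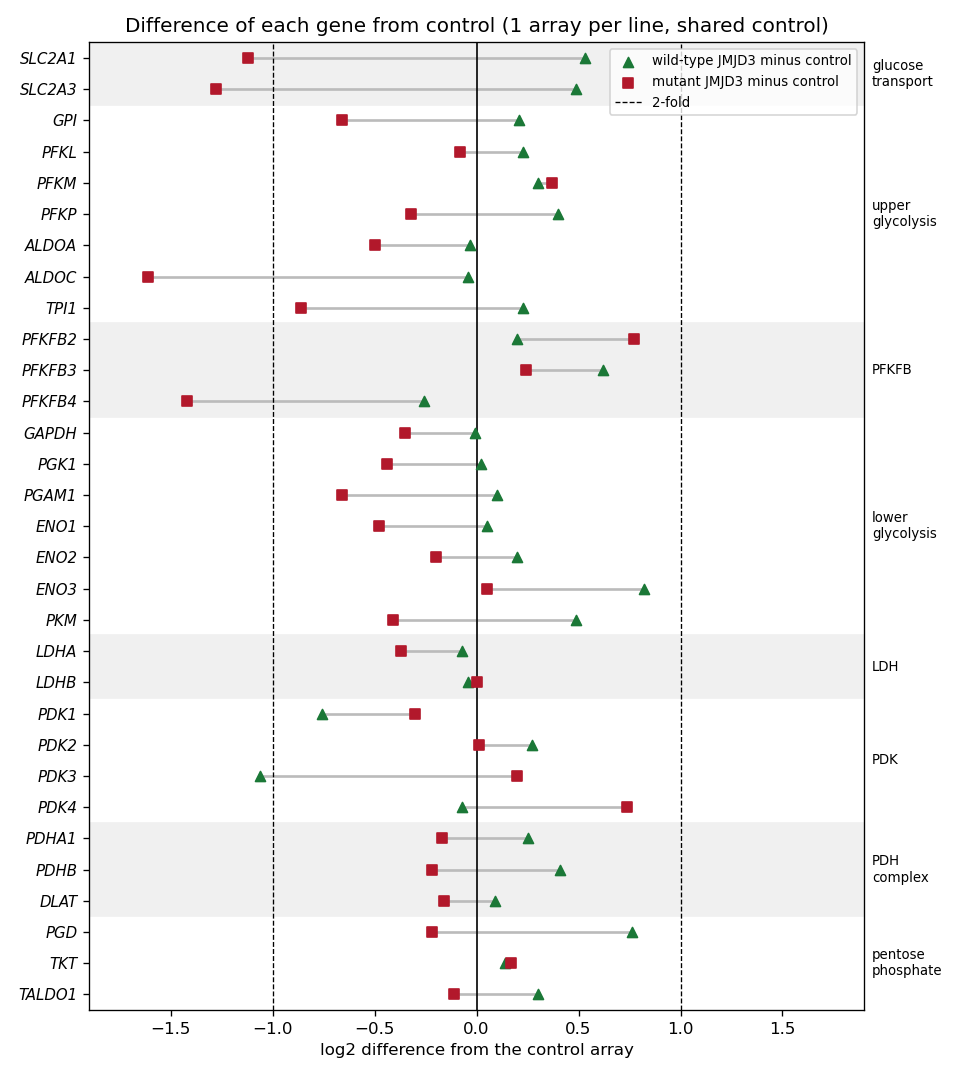
Log2 difference from the control array for each of the 31 genes, with wild-type JMJD3 as triangles and mutant JMJD3 as squares, and dashed lines at 2-fold. Squares of SLC2A1, SLC2A3, ALDOC and PFKFB4 lie beyond the left line, the only triangle beyond that line is PDK3, and no symbol lies beyond the right line.

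At the end of glycolysis the lactate dehydrogenase genes differed little. LDHA, whose subunit favours lactate formation, read 14.46 in control, 14.39 with wild-type and 14.09 with mutant JMJD3. It was 1.29-fold lower with the mutant than in control. LDHB, whose subunit favours the return to pyruvate, read 13.89, 13.85 and 13.89. Control and mutant were equal for LDHB, and its second probe set differed by 0.01 at most.

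The pyruvate dehydrogenase kinases went their own way at their brightest probe sets, with 3 of 4 lower with wild-type than with mutant JMJD3. This rests on the choice of probe set. With the median over probe sets, wild-type minus mutant was 0.035 for PDK1, 0.205 for PDK2 and 0.17 for PDK3, and only PDK4 stayed lower (-0.81). PDK3 read 9.21 in control, 8.15 with wild-type and 9.41 with mutant JMJD3. Wild-type was the low array, 2.08-fold under control and 2.39-fold under mutant. The 5 PDK3 probe sets fell apart here. Against control, 230085_at also read lower with wild-type (-1.16), while 221957_at, 206348_s_at and 206347_at gave 0.05, 0.36 and 0.25. PDK1, a known hypoxia target, read 10.10, 9.34 and 9.80 and was 1.69-fold lower with wild-type than in control. Its dimmer probe set showed -0.05 for wild-type and -0.58 for the mutant, the reverse order of the JMJD3 lines. PDK4, known to be induced in fasting, read 9.07, 9.0 and 9.81 and was 1.67-fold higher with the mutant. The other PDK4 probe sets lay under the floor and check nothing. PDK2, the widespread isoform, read 7.08, 7.35 and 7.09.

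The genes of the complex that these kinases control kept one order of the arrays. PDHA1, the catalytic alpha subunit, read 11.39 in control, 11.64 with wild-type and 11.22 with mutant JMJD3. PDHB, the beta subunit, read 11.64, 12.05 and 11.42. DLAT, the acetyltransferase core, read 10.06, 10.15 and 9.90. All 3 were highest with wild-type and lowest with the mutant, by 0.25 to 0.63 between the JMJD3 lines. PDHA1 and DLAT each had a probe set with the JMJD3 lines in the other order (-0.17 and -0.02).

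Of the pentose phosphate enzymes PGD differed most. PGD, an NADPH-forming dehydrogenase of the oxidative branch, read 9.78 in control, 10.54 with wild-type and 9.56 with mutant JMJD3. It was 1.69-fold higher with wild-type than in control and, at a log2 difference of 0.98 between the JMJD3 lines, lay just under 2-fold. TALDO1, transaldolase, read 12.44, 12.74 and 12.33. TKT, transketolase, read 12.17, 12.31 and 12.34, with the JMJD3 arrays 0.03 apart. A dimmer TKT probe set, 228205_at, read 7.05, 7.96 and 6.50, in which wild-type exceeded mutant by 1.46 on the log2 scale.

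**Figure D3:**
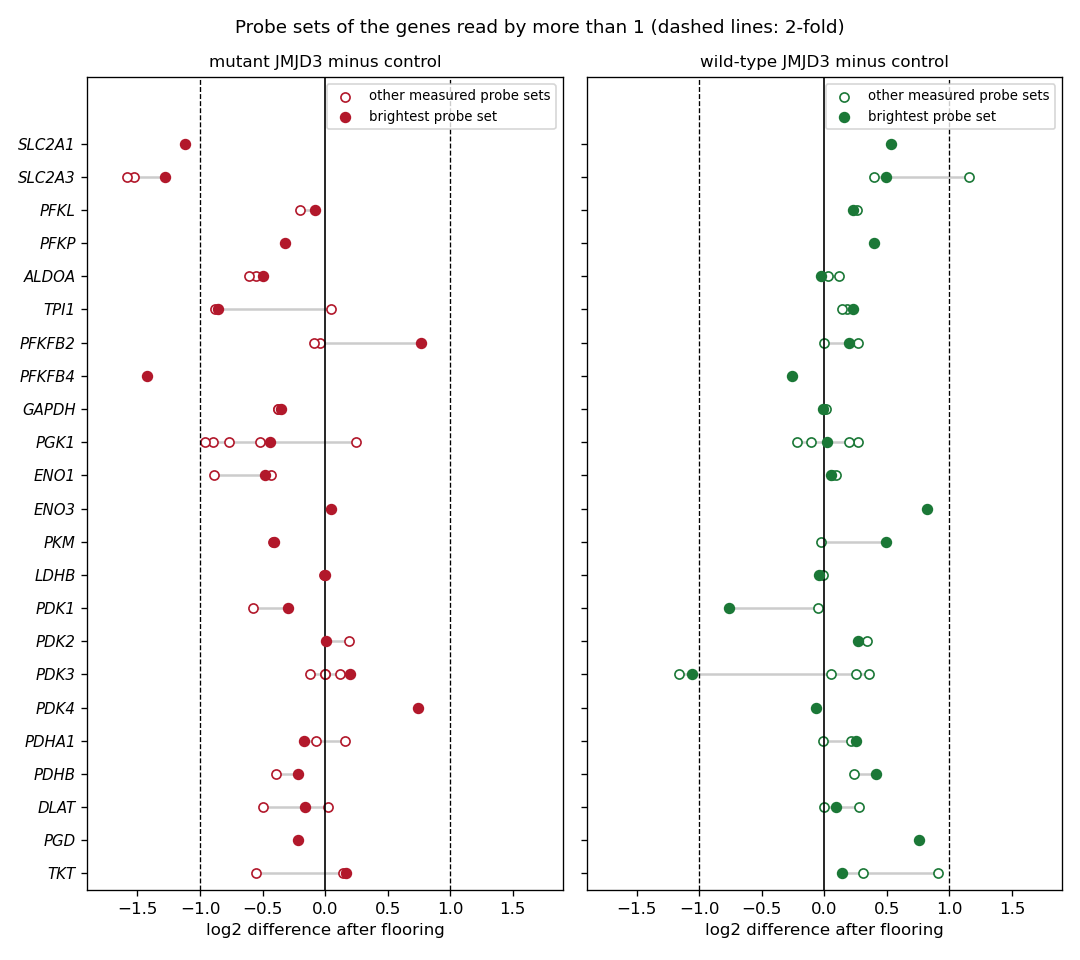
Log2 differences of every measured probe set of the 23 genes with more than 1 probe set, for mutant JMJD3 (left) and wild-type JMJD3 (right) against control, with the brightest probe set filled and dashed lines at 2-fold. ALDOA and GAPDH stay together in both panels, while in the right panel PDK3 runs from -1.16 to 0.36 and SLC2A3 from 0.40 to 1.16. In the left panel TPI1, PGK1, PFKFB2, PDK3, PDHA1, DLAT and TKT have probe sets on both sides of 0.

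Over all measured probe sets of these genes the counts for the mutant leaned the same way. Of 64 measured probe sets of the 31 genes, 46 were below control with mutant JMJD3, 15 above and 3 equal, with a median of -0.31. For 33 probe sets other than the brightest, 22 had the sign of the brightest, 8 the opposite sign, and in 3 either was 0. With wild-type JMJD3, 44 of 63 probe sets were above control and 16 below, and 19 of 32 other probe sets had the sign of the brightest. Probe sets of 1 gene share its RNA and are not replicates. The counts over 64 and 63 include each gene's brightest probe set, so they partly repeat the counts by gene. The share over all measured probe sets of the array was not computed. In 19 of the 31 genes the brightest probe set is of the kind (_s_at or _x_at) whose probes also match other transcripts, such as related genes or pseudogenes, so its signal can include them.

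Proximal promoters are shown for the genes with a promoter window that were lower by 2-fold with mutant JMJD3, and for PDK3, which was low with wild-type JMJD3. The windows are those of RefSeq on GRCh38.p14, and the 250 bases before each gene's start are printed. Capitals mark ACGTG and GCGTG on either strand, the core letters bound by hypoxia-inducible factor and, within CACGTG, by E-box factors such as MYC and MondoA.
ALDOC chr17:28576896-28577145 (- strand): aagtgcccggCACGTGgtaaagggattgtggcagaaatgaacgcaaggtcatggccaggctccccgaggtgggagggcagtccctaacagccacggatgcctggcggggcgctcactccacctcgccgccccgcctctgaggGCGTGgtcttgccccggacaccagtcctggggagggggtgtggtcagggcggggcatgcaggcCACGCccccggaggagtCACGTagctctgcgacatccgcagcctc
PFKFB4 chr3:48556804-48557053 (- strand): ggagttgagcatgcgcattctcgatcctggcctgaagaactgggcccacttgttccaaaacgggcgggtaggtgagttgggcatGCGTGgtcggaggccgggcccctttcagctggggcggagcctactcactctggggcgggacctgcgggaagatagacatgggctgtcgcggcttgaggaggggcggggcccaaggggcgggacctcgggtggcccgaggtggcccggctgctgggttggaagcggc
SLC2A1 chr1:42958869-42959118 (- strand): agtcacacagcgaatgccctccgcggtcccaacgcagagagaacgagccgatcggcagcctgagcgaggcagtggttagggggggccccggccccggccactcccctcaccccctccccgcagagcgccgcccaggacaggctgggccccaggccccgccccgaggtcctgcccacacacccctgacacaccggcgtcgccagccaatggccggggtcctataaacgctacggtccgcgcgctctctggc
PDK3 chrX:24465036-24465285 (+ strand): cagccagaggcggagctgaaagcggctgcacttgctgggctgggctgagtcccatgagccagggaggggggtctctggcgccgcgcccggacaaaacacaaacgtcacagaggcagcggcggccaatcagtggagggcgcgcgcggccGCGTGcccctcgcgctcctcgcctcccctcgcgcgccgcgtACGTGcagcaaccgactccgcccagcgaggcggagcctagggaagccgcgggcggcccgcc
The ALDOC window held ACGTG 3 times, of which 2 overlap within the palindrome CACGTG that starts 240 bases before the gene's start, and GCGTG 2 times. PFKFB4 held GCGTG once and PDK3 each core once. SLC2A1 had no match in the printed bases and 1 GCGTG in the 50 bases after the start. SLC2A3, PFKFB2 and SLC16A1 had no entry. TPI1, 2-fold apart only between the JMJD3 lines, is not printed. A TPI1 window held each core once, and another held no match.

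The table held 52 windows of 300 bases for 30 of the 33 genes, and both strands were searched with matches allowed to overlap. SLC16A3 is among the 30. Genes with several starts have several windows, which can overlap, as for PFKM, so windows are not separate units. The letters ACGTG stood in 40.4% of these windows and in 21.4% of all 35116 windows of that length. For GCGTG, the other core, the shares were 42.3% of the genes' windows and 36.5% of all. The E-box stood in 13.5% of the genes' windows and in 7.26% of all. It stood in a window of 7 genes, ALDOA, ALDOC, GAPDH, LDHA, PDHB, PDK2 and PFKFB3. These 7 included ALDOC at -1.61 and PFKFB3 at 0.24 for mutant against control. A match describes letters only.

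Hexokinase and the less used transporters, the first of the neighbouring gene lists, held 12 measured genes of 17 for wild-type against control. HKDC1, which phosphorylates glucose, read 8.02 with wild-type JMJD3 and lay under the floor in control (4.19) and mutant (4.24), at least 5.82-fold higher with wild-type than in either. With the median over its probe sets the log2 difference was 0.59. HK1 read 9.55 in the control array, 10.09 in the wild-type one and 9.60 in the mutant one, and HK2 9.95, 9.95 and 9.62. SLC2A13, a myo-inositol transporter in the same family, read 8.13, 8.02 and 9.81 and was 3.20-fold higher with the mutant than in control, opposite to SLC2A1 and SLC2A3. G6PC3, a glucose phosphatase, was 2.53-fold higher with wild-type than with mutant (11.03 against 9.69). With the mutant 6 of 11 measured genes of this list were below control and 3 above, with a median of -0.21.

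Further lists had medians between -0.08 and 0.23 with the mutant. Of 19 measured tricarboxylic acid cycle genes 11 were above control and 7 below with mutant JMJD3, with a median of 0.12, and 13 were above with wild-type, with a median of 0.27, none by 2-fold. Of 9 measured other pentose phosphate genes 6 were above control and 1 below with the mutant (median 0.23). RPE, ribulose phosphate epimerase, was the only one past 2-fold in any comparison, at 9.71 in the wild-type array and 10.75 in the mutant array, or -0.87 on the log2 scale without shared probe sets. Other isozymes and side enzymes had 7 of 12 above control with the mutant and a median of 0.12. Pyruvate carriers and partners of pyruvate dehydrogenase had 8 of 12 below and a median of -0.08. In the last 2 lists no gene differed by 2-fold in any comparison.

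**Figure D4:**
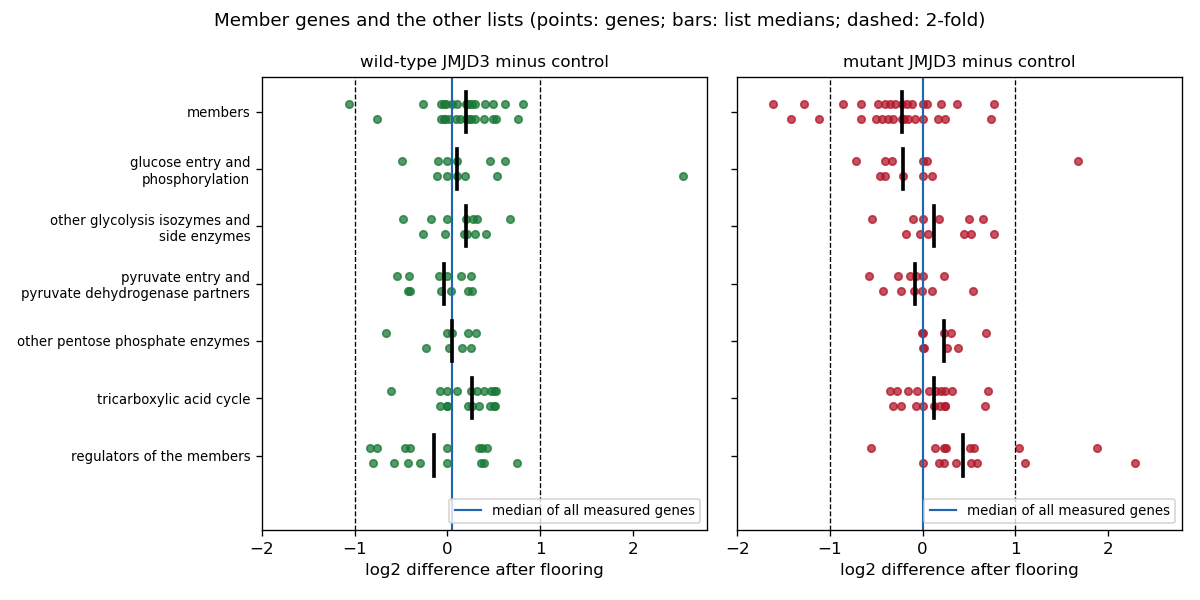
Log2 difference from control of each measured gene (points) in the 31 genes described here and in the neighbouring lists, for wild-type JMJD3 (left) and mutant JMJD3 (right), with list medians as black bars, the median of all measured genes as a blue line and dashed lines at 2-fold. In the right panel the bar of the 31 genes lies at -0.22 and that of the regulators at 0.44.

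Genes known to regulate glucose use were mostly higher with mutant JMJD3, 14 of 16 measured, with a median of 0.44 and 4 past 2-fold. Among all measured genes 45.9% were above control and 2.98% higher by 2-fold. The list was chosen with earlier results of these data known, so its shares are a description only. TXNIP, an arrestin known to lower GLUT1 at the cell surface, read 9.67 in control, 9.27 with wild-type and 11.96 with mutant JMJD3. The mutant array was 4.89-fold above control for TXNIP, on a probe set of the shared kind. Its relative ARRDC4 read 8.08, 7.28 and 9.96. PPARGC1A, a coactivator of mitochondrial genes, read 7.71, 6.88 and 8.75 (0.99 for mutant against control with quantile normalization), and EPAS1, the alpha subunit of hypoxia-inducible factor 2, read 11.26, 12.01 and 12.37. Against wild-type, 7 of the 16 were at least 2-fold higher with the mutant (6.2% of all measured genes), led by TXNIP, ARRDC4, PPARGC1A and the AMPK subunit gene PRKAA1. For PRKAA1 wild-type minus mutant was -1.28, and -0.99 with the median over its probe sets. HIF1A and MYC were singled out after their values were seen. HIF1A RNA read 11.80, 11.22 and 12.31, and MYC RNA 11.98, 11.55 and 12.57. For wild-type minus mutant they stood at -1.09 and -1.02. Whether the regulators' levels bear on the enzymes was not tested.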

How the data were processed

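The authors deposited 1 log2 signal per probe set and array, and MAS5 is named without settings, per the submitters' processing notes. The normalization method and its settings are not given in the sources used here, so equal values do not show equal transcript levels. The sorted log2 columns lay within 0.14 of each other. The platform annotation gave 41091 of 54613 probe sets a single symbol and 1801 several, and 11721 were not listed in it. The brightest probe set stood for its gene. Signals were floored at the pooled median, and a difference is one array's floored log2 signal minus another's. Differences of 2-fold or more were counted over all measured genes, as there were no replicates for a test. All 33 genes are accounted for, and the members and lists were chosen with earlier results of these data known. From the neighbouring lists, up to 4 genes past 2-fold per comparison are named. The hexokinases HK1 and HK2 and the regulators HIF1A and MYC were added after their values were seen. The step was tested on simulated data, and it recovered the 50 genes changed by 1.5 and the 50 changed by -1.5 on the log2 scale, among 19775. Both changes exceed 2-fold, so their recovery checks the calculation only. It cannot show how often noise between real arrays would pass 2-fold, because there were no replicates to measure that noise. The 7 alternatives were scaling to one median, quantile normalization, a floor at the 40th or at the 60th percentile, an offset equal to the pooled median signal in place of the floor, each gene's median probe set difference, and dropping probe sets of the shared kind (_s_at, _x_at). Protein sequences were not used here. The work used numpy 2.4.6, pandas 2.3.3, matplotlib 3.10.9 and Python 3.11.15.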

Additional observations from a re-analysis of the deposited data

How the results depend on the processing

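No paired analysis was possible because each line has 1 array. The 4 genes lower by 2-fold with mutant JMJD3 against control became 2 without shared probe sets, where 17 of the 31 genes were left and SLC2A1 and SLC2A3 had no value, and SLC2A1 was at -0.92 with the offset. For wild-type against control the count of 1 lower gene (PDK3) became 0 with the offset (-0.95) and 0 with the median over probe sets, where PDK3 turned to 0.05. For wild-type against mutant the 5 higher genes became 3 without shared probe sets, as TPI1 fell to 0.09, the median went from 0.42 to 0.63, and TKT turned from -0.03 to 1.46. There the count of lower genes went from 1 to 0 with the median over probe sets (PDK3 at 0.17), PFKFB4 was at 0.96 with the offset, and PGD reached 2-fold with quantile normalization. Apart from PGD, these changes follow from which probe sets or genes remain, or from the offset, which shrinks differences of dim genes. Of 609 values of single genes under the alternatives, 601 kept their side of 2-fold. That share is no measure of robustness. All 31 genes lay over both alternative floors, so these could not change any value, and scaling to one median shifts all genes of a comparison alike. Genes left without a value, such as SLC2A1 and SLC2A3 without shared probe sets, are not among the 609. With quantile normalization 54.4% of all measured genes were below control with the mutant in place of 41.2%, and 24 of the 31 genes in place of 22. Without shared probe sets, 9 of the 17 genes left were above control with wild-type JMJD3 and 7 below. Their median was 0.14, and 37.2% of all genes measured in that setting were below control. With the mutant 10 of the 17 were below control and 7 above, with 39.0% of all genes below. Among neighbouring genes, HKDC1 (0.59 in both comparisons that involve wild-type JMJD3), RPE (-0.87) and PRKAA1 (-0.99) lost 2-fold with the median over probe sets, RPE also without shared ones (-0.87), and PPARGC1A for mutant against control with quantile normalization (0.99) and the offset (0.90). Signal over the floor limits PFKFB2, whose other measured probe sets lay near it.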

Other observations

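Probe sets that the annotation gives to SLC2A3 together with its close relative SLC2A14 were left out of the gene values. Probe set 216236_s_at read log2 7.77 in the control array, 8.96 in the wild-type one and 6.52 in the mutant one. Probe set 222088_s_at read 8.47, 8.83 and 6.85. Both were lowest with the mutant, by 1.25 and 1.62 on the log2 scale against control, and highest with wild-type, as were the probe sets of SLC2A3 alone.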
